A study of Mus musculus with 6 samples.

Results

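A set of 7 listed genes of MHC class II presentation was taken for description in sorted mouse mammary basal cells, and 6 of the 7 could be measured. They are the classical chains H2-Aa, H2-Ab1 and H2-Eb1, the peptide editor chains H2-DMa and H2-DMb1, the invariant chain gene Cd74 and the transactivator gene Ciita. Members were found by gene symbol among 22180 genes, each represented by the probe set with the highest mean over the 6 arrays, and only probe sets annotated with exactly 1 symbol were used. The probe set that carries Cd74 is annotated with more than 1 gene, so Cd74 is not analysed here.

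The knockout group (KO) consisted of 3 arrays of basal cells from mice labelled Trp53-/-, p16ink4a-/- and p19arf-/-, labels that name the gene of the tumour suppressor p53 and both products of Cdkn2a. They were compared with 3 arrays of basal cells from wild type mice (WT). All animals were virgin females of 8 to 14 weeks, each array was 1 biological replicate, and no strain is given in the sources used here. Per the labels' protocols, mammary glands were digested to single cells, cells carrying CD45, CD31 or TER119 were depleted with magnetic beads, and basal cells were then sorted by flow cytometry with stains that included CD49f and CD24. The genotype is written as -/- for each allele, with no Cre driver or tissue restriction named.

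MHC class II molecules are surface heterodimers that present peptides from the endosomal pathway to CD4+ T cells. The α and β chains assemble with the invariant chain, proteases of the endosome cut that chain down to a fragment called CLIP, and the DM heterodimer exchanges CLIP for other peptides. Ciita is the transactivator on which transcription of these genes depends. It acts through the RFX, CREB and NF-Y factors, which hold the conserved X and Y boxes of class II promoters. Dendritic cells, macrophages and B cells express the pathway constitutively, and epithelial cells can be induced to do so by interferon-gamma.

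The shared promoter elements of the members are shown first, since the arrays report several genes thought to answer to a single transactivator. RefSeq promoter windows (GRCm38.p6, 250 bases before to 50 after the start) were available for 4 of the 7 members, namely H2-Aa, H2-Eb1, H2-DMb1 and H2-DMa. An X-box-like motif, CTNGNAAC, followed on the same strand by the Y box core ATTGG after 10 to 30 letters, was found in H2-Aa, H2-Eb1 and H2-DMb1. In capitals are the letters of these motifs, in a stretch from 110 to 31 bases before the start.
H2-Aa (chr17:34287854-34287933, minus strand): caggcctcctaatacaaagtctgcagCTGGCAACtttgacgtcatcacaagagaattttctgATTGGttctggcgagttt
H2-Eb1 (chr17:34305757-34305836, plus strand): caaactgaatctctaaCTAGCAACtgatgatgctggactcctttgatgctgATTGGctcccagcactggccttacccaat
H2-DMb1 (chr17:34153081-34153160, plus strand): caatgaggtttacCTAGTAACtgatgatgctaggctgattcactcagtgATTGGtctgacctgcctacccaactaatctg

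The letters between the motifs numbered 28 in H2-Aa, 27 in H2-Eb1 and 28 in H2-DMb1. Searched on both strands, CTNGNAAC occurred in 13.2% of 32851 promoter windows of the same length, ATTGG in 37.4% and the spaced pair in 0.277%. The motifs do not overlap each other. Their letters were chosen with the class II sequences in view, so the matches are a description. The pair was not in either of the 2 windows listed for H2-DMa. Which start its measured transcript uses is not given in the sources used here, so whether another H2-DMa start has the pair was not tested. The stretches of both windows at the same distance from the start are given below.
H2-DMa, upstream start (chr17:34122722-34122801, plus strand): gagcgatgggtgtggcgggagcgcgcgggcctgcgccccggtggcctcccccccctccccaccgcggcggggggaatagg
H2-DMa, downstream start (chr17:34125408-34125487, plus strand): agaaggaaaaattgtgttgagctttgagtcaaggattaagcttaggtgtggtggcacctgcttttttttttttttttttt

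Of 4 other class II genes with a window in the table (H2-DMb2, H2-Eb2, H2-Oa and H2-Ob), H2-Ob held the pair.

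The arrays report log2 values made with RMA, and their medians over all rows lay between 5.22 and 5.39, with the third quartile between 6.71 and 6.81. Arrays carry no sequencing depth, so precision rests on how many were run per genotype. Whether the mice of a group shared a litter is not stated, so how independent the arrays of a group are is not known. The limma p-values set a genotype difference against the spread between arrays within the groups, estimated in part from all genes. No gene of the whole table passed the threshold of an adjusted p under 0.05 in the limma fit (0 of 22180, 0.0%), and 736 genes (3.32%) had an unadjusted p under 0.05. Basal markers were bright, and each of the 10 measured had a mean over the arrays above the third quartile. Their mean lay between 10.54 and 10.93 on KO arrays and between 10.59 and 10.87 on WT arrays. Cdkn2a signal was 6.32 ± 0.070 in KO cells and 6.25 ± 0.356 in WT cells (SD, n = 3 each). The position of its probes relative to the deletion is not given in the sources used here and Trp53 is not analysed here, so the genotype labels could not be checked by these genes.

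Of the 6 measured members, 5 had a higher and 1 a lower mean in KO cells, with Ciita turning to a lower one under quantile normalization or median centring. Only H2-Ab1 had a mean over the arrays above the third quartile of all rows, and no member had one below the first quartile. H2-Ab1 was the member with the largest positive difference, 1.56 times as high in KO cells, and H2-DMa was lower in KO cells, at 0.677 times the WT level. H2-Eb1, H2-Aa and H2-DMb1 differed by less, and Ciita had nearly the same mean in both genotypes. None passed over all genes (limma adjusted p = 1.0 for each). Groups overlapped for all 6, where 7.68% of all genes had groups that did not overlap. H2-Ab1 and H2-DMa, 2 of the 6, had an unadjusted p under 0.05, 1 higher and 1 lower in KO cells, where 1.61% of all genes were higher and 1.71% lower at that p. That count of members was 0 without WT replicate 3 or without KO replicate 3, 1 without WT replicate 2, KO replicate 1 or KO replicate 2, and 3 with array weights.

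**Figure D1:**
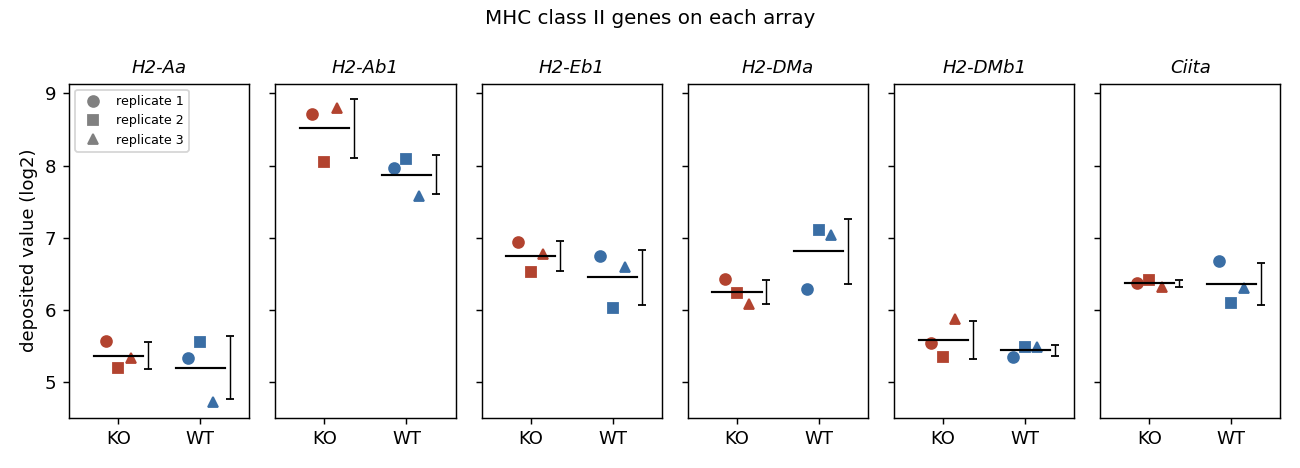
Deposited log2 value of each measured class II gene on each array, KO left and WT right. Symbols mark replicate numbers, horizontal lines group means and bars 1 SD (n = 3 each). H2-Ab1 was highest on KO replicates 1 and 3, H2-DMa on WT replicates 2 and 3, and every gene's groups overlap.

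Among the classical chains, H2-Ab1 encodes the β chain of the I-A molecule. Its log2 values were 8.71, 8.05 and 8.79 on KO arrays 1 to 3, against 7.96, 8.09 and 7.58 on WT arrays 1 to 3. KO replicates 1 and 3 lay above every WT array, while KO replicate 2 lay just below WT replicate 2. The log2 fold change was 0.64 (standard error 0.239), with a 95% interval from 0.10 to 1.18 (limma unadjusted p = 0.0252, adjusted p = 1.0). Its spread over the 6 arrays, 2.32-fold from lowest to highest, was matched or exceeded by 5.73% of genes. In RNA of a sorted population, more cells of a class II positive type and more RNA per cell cannot be told apart.

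H2-Aa encodes the α chain that pairs with the H2-Ab1 product. It read 5.57, 5.19 and 5.34 in KO cells, against 5.34, 5.55 and 4.72 in WT cells. The highest value was on KO replicate 1 and the lowest on WT replicate 3, and the groups overlapped. The log2 fold change was 0.16 (standard error 0.219), with an interval from -0.33 to 0.66, so a 1.58-fold higher and a 0.794-fold level in KO cells both lie within its bounds. The difference was -0.077 without WT replicate 3, 0.34 without WT replicate 2 and 0.46 with array weights (limma unadjusted p = 0.0486).

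H2-Eb1, the β chain of the I-E molecule, read 6.93, 6.52 and 6.77 in KO cells, against 6.75, 6.03 and 6.59 in WT cells. KO replicates 1 and 3 lay above all WT arrays, and in each genotype replicate 2 was the lowest. The log2 fold change was 0.29 (standard error 0.220), with an interval from -0.21 to 0.79. Between same-numbered arrays the difference was 0.19, 0.50 and 0.18, always higher in KO cells, and H2-Eb1 was the only member of which this held. Without WT replicate 2 the fold change was 0.074. The α chain partner of H2-Eb1, H2-Ea, which some inbred strains do not express, lay between 4.45 and 4.70 on KO arrays and between 4.51 and 4.76 on WT arrays, below the median of all rows on every array.

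The member DM chains, H2-DMa and H2-DMb1, form 1 heterodimer. Their fold changes had opposite signs, and neither passed over all genes. H2-DMa read 6.43, 6.24 and 6.09 in KO cells, against 6.30, 7.11 and 7.03 in WT cells. WT replicates 2 and 3 stood above all other arrays, and WT replicate 1 lay within the KO range. The log2 fold change was -0.56 (standard error 0.233), with an interval from -1.09 to -0.03 (limma unadjusted p = 0.0393, adjusted p = 1.0).

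H2-DMb1 read 5.55, 5.35 and 5.87 in KO cells, against 5.35, 5.48 and 5.49 in WT cells. KO replicates 1 and 3 lay above the WT arrays, and KO replicate 2 lay at the level of the lowest of them. The log2 fold change was 0.15 (standard error 0.166), with an interval from -0.23 to 0.52. Without KO replicate 3 it was 0.0065. H2-DMb2, a further DM β chain gene outside the members, read 4.96, 4.17 and 4.03 in KO cells, against 4.21, 3.66 and 4.42 in WT cells. It lay below the median of all rows on every array. Its log2 fold change was 0.29 (standard error 0.269), and it was not used in the within-array difference of the DM chains.

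The difference between the DM chains was taken within each array after these values had been seen, since it cancels any offset of a whole array. H2-DMa minus H2-DMb1 was 0.88, 0.89 and 0.21 in KO cells, against 0.95, 1.63 and 1.54 in WT cells. All KO arrays lay below all WT arrays, the nearest being 0.89 and 0.95. The mean was 0.66 ± 0.387 in KO cells and 1.37 ± 0.370 in WT cells (SD, n = 3 each), a difference of -0.71 (exact two-sided permutation p = 0.1, the smallest that 3 arrays against 3 allow). Between same-numbered arrays, in a replicate block, the difference was -0.07, -0.74 and -1.33 (exact two-sided sign-flip permutation p = 0.25, the smallest that 3 pairs allow). The opposite signs of the DM chains were known before this difference was taken, so its p-values are a description and lend no support. For the I-A chains, H2-Aa minus H2-Ab1 was -3.14, -2.86 and -3.45 in KO cells, against -2.63, -2.54 and -2.86 in WT cells, a difference of -0.48 (exact two-sided permutation p = 0.2). Between same-numbered arrays it was -0.52, -0.32 and -0.59, lower in KO cells in all 3 pairs (exact two-sided sign-flip permutation p = 0.25). Probe sets differ in brightness for reasons other than transcript level, so these quantities compare arrays and do not rank the chains. H2-Aa lay between 4.72 and 5.57, around the array medians, and H2-Ab1 above the third quartile on every array. The part of that gap in brightness in the I-A difference was not tested.

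Ciita, the transactivator, read 6.37, 6.41 and 6.32 in KO cells, against 6.68, 6.10 and 6.31 in WT cells. The KO arrays lay close together and within the WT range, whose ends were WT replicates 1 and 2. The log2 fold change was 0.0036 (standard error 0.180), and its interval from -0.40 to 0.41 leaves room for 0.756 to 1.33 times the WT level. Its sign turned to -0.011 with quantile normalization and to -0.0022 with median centring. H2-Ab1 and Ciita had their highest and lowest arrays in different places: H2-Ab1 was highest on KO replicate 3 and lowest on WT replicate 3, Ciita highest on WT replicate 1 and lowest on WT replicate 2. H2-Eb1 was lowest on WT replicate 2, as Ciita was, and highest on KO replicate 1. With log2 values centred on each gene's mean, the root-mean-square difference from Ciita was 0.22 for H2-Eb1, the smallest of all member pairs. For H2-Ab1 it was 0.47. Whether the chains follow Ciita was not tested.

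Over the 6 members the median log2 fold change was 0.16, with 5 higher and 1 lower in KO cells. Over all genes it was -0.0067, with 10703 of 22180 (48.3%) higher in KO cells. The count of 5 counts Ciita, so it is 4 of 6 under quantile normalization or median centring, and it was 3 of 6 when WT replicate 3 was left out. The members share the arrays on which they stood high only in part. KO replicate 1 or 3 was the highest array for H2-Aa, H2-Ab1, H2-Eb1 and H2-DMb1, and WT replicate 3 the lowest for H2-Aa and H2-Ab1. H2-Ab1 and H2-DMb1 lay on the same side of their own mean on all 6 arrays, while H2-Eb1 and H2-DMa did so on 1 of the 6.

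**Figure D2:**
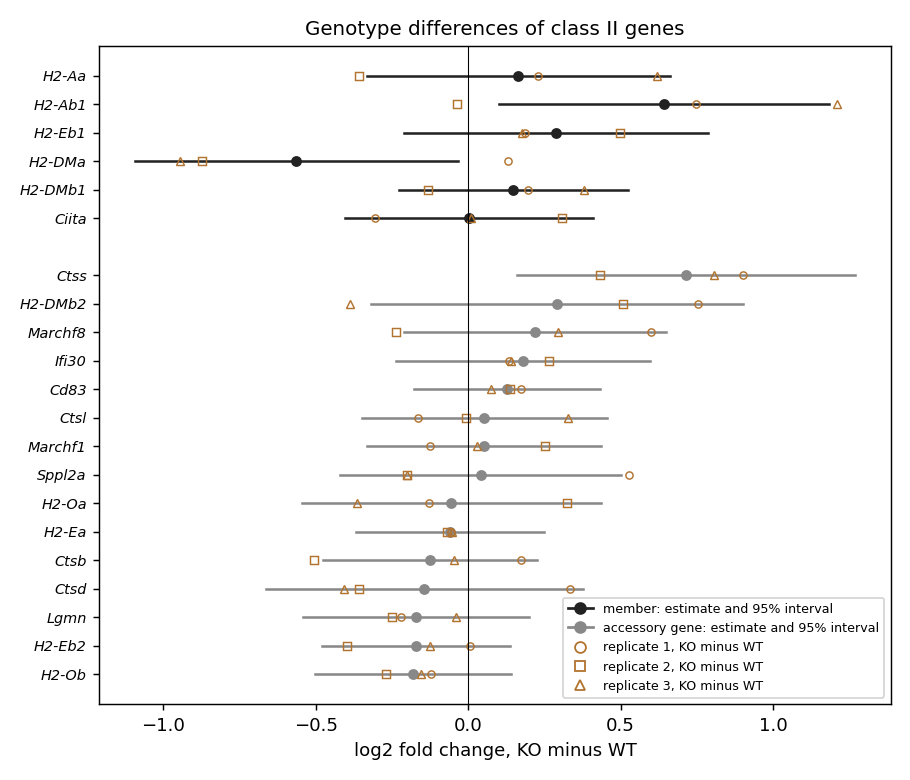
Log2 fold change, KO minus WT, of the 6 members (black) and 15 accessory and processing genes (grey), with 95% intervals from the limma fit; open symbols are differences between arrays of the same replicate number. H2-DMa lies left of 0, and intervals exclude 0 for H2-Ab1, H2-DMa and Ctss, before adjustment over all genes.

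The endosomal machinery around the members was measured with 15 accessory and processing genes, of which 8 were higher and 7 lower in KO cells, with a median log2 fold change of 0.04. That median was -0.027 without KO replicate 1 and -0.033 with array weights. None passed over all genes. Ctss, encoding cathepsin S, the protease that makes the last cut of the invariant chain, stood apart with 7.35, 6.56 and 6.68 in KO cells, against 6.45, 6.12 and 5.87 in WT cells. All KO arrays lay above all WT arrays, and the log2 fold change was 0.71 (standard error 0.244; limma unadjusted p = 0.0170, adjusted p = 1.0). The other named genes of the list differed by less than Ctss. Lgmn had all KO arrays below all WT arrays, with a log2 fold change of -0.17 (standard error 0.164). Groups thus did not overlap for 1 gene higher and 1 lower of the 15, where 7.68% of all genes had groups that did not overlap. H2-Ob, a chain of the DO heterodimer that restrains DM, had a log2 fold change of -0.18 (standard error 0.142), and H2-Eb2, a further β chain gene, of -0.17 (standard error 0.136). Marchf8, a membrane ubiquitin ligase, had one of 0.22 (standard error 0.190).

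The class II transcription factors gave 4 higher and 3 lower of 7, a median of 0.035, and none with an unadjusted p under 0.05. Rfxap, a subunit of the RFX complex, had a log2 fold change of 0.25 (standard error 0.187), and Creb1, which binds the X2 element, one of 0.18 (standard error 0.216). Nfya and Nfyb, subunits of the Y box factor, had 0.07 and -0.06.

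Upstream of Ciita, interferon-gamma signalling had 9 measured genes, 5 higher and 4 lower in KO cells, with a median of 0.07, which was -0.066 without WT replicate 3 and -0.036 without KO replicate 2. Irf1, a transcription factor induced by interferon-gamma that acts on the Ciita promoter, read 7.33, 8.27 and 6.72 in KO cells, against 6.80, 6.89 and 6.17 in WT cells. KO replicate 3 lay within the WT range, and the other KO arrays lay above it. Its log2 fold change was 0.82 (standard error 0.368; limma unadjusted p = 0.0531, adjusted p = 1.0). Ifng, the ligand, had a log2 fold change of -0.37 (standard error 0.164), at values between 4.17 and 4.79 over all arrays. Socs1, a feedback inhibitor, had 0.22, and Ifngr2, a receptor chain, 0.19. The array with the highest Irf1, KO replicate 2, was the KO array with the lowest H2-Aa, H2-Ab1, H2-Eb1 and H2-DMb1.

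Co-stimulatory genes, whose products accompany class II molecules on antigen presenting cells, had 4 higher and 2 lower of 6, with a median of 0.05. That median was -0.023 with dim genes left out, 0.16 without WT replicate 2 and 0.011 without KO replicate 2. Cd274, encoding the inhibitory ligand PD-L1, had all KO arrays above all WT arrays and a log2 fold change of 0.35 (standard error 0.174; limma unadjusted p = 0.0755, adjusted p = 1.0). It was the 1 gene of the 6 whose groups did not overlap, where 7.68% of all genes had such groups. Cd86 had a log2 fold change of 0.25 and Cd40 of -0.18, and Pdcd1lg2, encoding PD-L2, of -0.08. Cd86 was dim, between 3.62 and 4.25 on KO arrays and between 3.56 and 3.70 on WT arrays.

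Class I presentation genes, some of which lie between the DM and the classical class II genes on the chromosome, had 7 higher and 5 lower of 12 and a median log2 fold change of 0.03, against 0.16 over the class II members. Without WT replicate 1 the class I median was -0.15. None passed over all genes. B2m, the class I light chain, had a log2 fold change of 0.34 (standard error 0.120). It was the 1 gene of the 12 whose groups did not overlap, where 7.68% of all genes had such groups. Tap1, a subunit of the peptide transporter, had 0.40, and Nlrc5, the class I counterpart of Ciita, 0.32 (standard error 0.160). Nlrc5 read 5.90, 5.66 and 5.96 in KO cells, against 5.70, 5.34 and 5.50 in WT cells, so the groups overlapped only where KO replicate 2 lay below WT replicate 1. Erap1, a peptidase that trims class I peptides, had -0.22. The difference between the genotype effects of Nlrc5 and Ciita was not tested.

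**Figure D3:**
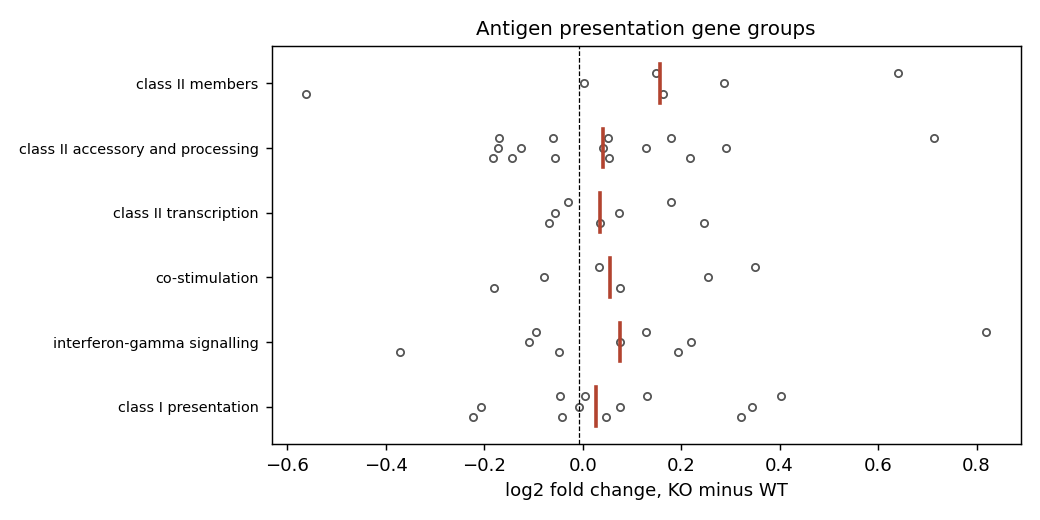
Log2 fold change, KO minus WT, of each gene (circles) in the 6 gene groups, with group medians (red) and the median over all genes (dashed, -0.0067). Group medians lie between 0.03 and 0.16, and single genes between -0.56 and 0.82.

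Markers of cells that express class II constitutively were examined on the same arrays, as were markers of the other cells a mammary sort may hold. The level of a list is the mean log2 value of its genes. Pan-leukocyte markers had 7 of 8 genes higher in KO cells, at levels of 5.26, 5.03 and 5.144 on KO arrays, against 5.136, 4.94 and 5.09 on WT arrays. The level was highest on KO replicates 1 and 3, the arrays with the highest H2-Ab1, with WT replicate 1 close to KO replicate 3. Ptprc, encoding the CD45 antigen used for depletion, read 3.66, 3.35 and 3.75 in KO cells, against 3.28, 3.43 and 3.36 in WT cells, below the first quartile of all rows on every array. Tyrobp, an adaptor of myeloid receptors, had a log2 fold change of 0.21 and Cd53, a leukocyte tetraspanin, of -0.18. The 3 genes differed in where they stood high: Ptprc was highest on KO replicates 3 and 1, as H2-Ab1 was, Tyrobp on KO replicates 1 and 2, and Cd53 on WT replicate 3, the array with the lowest H2-Ab1. None of these lists held a gene at an adjusted p under 0.05.

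Macrophage markers had 8 of 11 genes higher in KO cells, at levels of 5.55, 5.44 and 5.71 on KO arrays, against 5.58, 5.39 and 5.40 on WT arrays. The level of WT replicate 1 thus lay above that of KO replicate 1. Cd68, a lysosomal glycoprotein, had a log2 fold change of 0.36, the complement gene C1qc of 0.27 and the lysozyme gene Lyz2 of 0.45, whose values were 5.63, 4.95 and 6.38 in KO cells, against 5.28, 5.31 and 5.00 in WT cells. Among KO arrays, Lyz2 and C1qc were highest on replicate 3 and lowest on replicate 2, as H2-Ab1 was, whereas Cd68 was highest on replicate 2. The macrophage markers lower in KO cells were C1qb, Adgre1 and Fcgr1, with log2 fold changes of -0.05, -0.05 and -0.12. C1qb was highest on WT replicate 1. Dendritic cell markers had 4 of 8 higher, at levels between 5.60 and 5.72 on KO arrays and between 5.55 and 5.84 on WT arrays. B cell markers had 5 of 6 higher, at levels between 4.90 and 4.97 on KO arrays and between 4.82 and 4.99 on WT arrays. T cell markers had 2 of 5 higher, at levels between 4.67 and 4.89 on KO arrays and between 4.70 and 4.99 on WT arrays. An array value has no zero, and the part of such cells in the class II values was not tested.

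The mean levels of general and hormone-sensing luminal markers stood high on the same arrays as H2-DMa. All 8 general luminal markers were lower in KO cells, at levels of 8.82, 8.94 and 8.35 on KO arrays, against 8.42, 9.70 and 9.53 on WT arrays. All 5 measured markers of hormone-sensing luminal cells were lower as well, at 6.46, 6.87 and 6.06 on KO arrays, against 5.94, 7.64 and 7.40 on WT arrays. WT replicates 2 and 3 were the highest arrays in the level of both lists and for H2-DMa, and WT replicate 1 lay at or near the KO arrays in all of them. Not every gene did so: Epcam, a general luminal marker, was highest on WT replicate 3 but next to lowest on WT replicate 2. Some class I genes, among them Psmb8, Psmb9 and Psmb10, were also highest on WT replicates 2 and 3. Luminal progenitor markers had 2 of 8 higher, at levels between 7.54 and 7.71 on KO arrays and between 7.32 and 8.17 on WT arrays. Within that list the milk protein gene Csn3 read 8.47, 7.90 and 9.11 in KO cells, against 7.53, 7.67 and 7.78 in WT cells, and was highest on the same KO arrays as H2-Ab1. Aldh1a3, a retinaldehyde dehydrogenase, and Ltf, encoding lactoferrin, were lower in KO cells, with log2 fold changes of -0.30 and -0.82. Ltf read 7.29, 7.47 and 6.06 in KO cells, against 6.40, 8.94 and 7.92 in WT cells, and was highest on WT replicates 2 and 3, as H2-DMa was. The part of luminal cells in the value of H2-DMa was not tested.

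**Figure D4:**
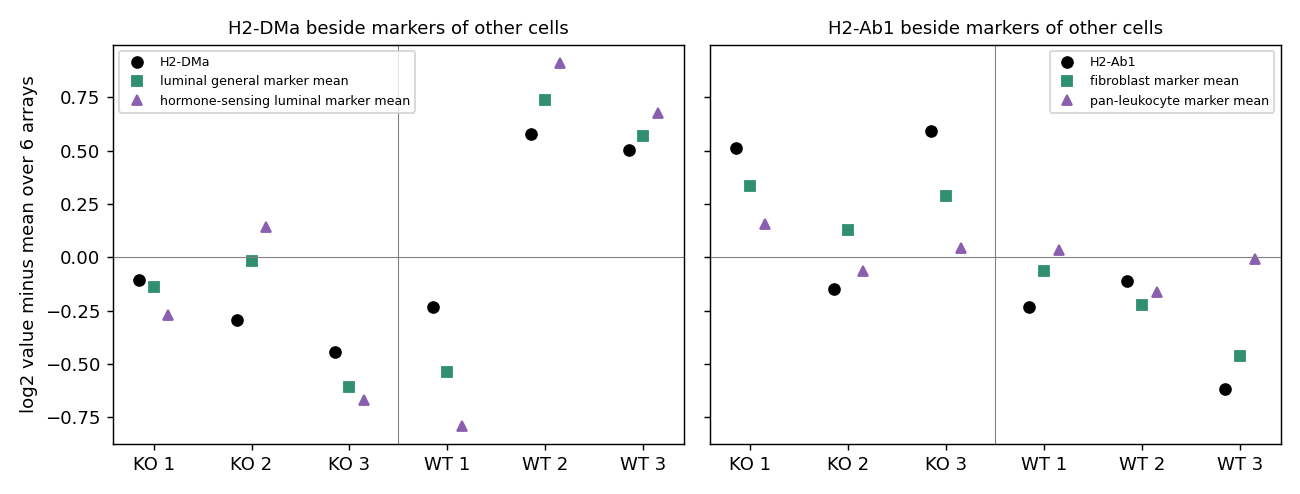
Log2 value minus the mean over the 6 arrays, for H2-DMa with luminal marker means (left) and H2-Ab1 with fibroblast and pan-leukocyte marker means (right), on KO arrays left and WT arrays right. H2-DMa and the luminal means stand high on WT replicates 2 and 3. H2-Ab1 stands high on KO replicates 1 and 3, the arrays with the highest fibroblast and pan-leukocyte marker means. The pan-leukocyte mean of KO replicate 3 (5.144) is close to that of WT replicate 1 (5.136).

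Fibroblast markers were higher in KO cells for all 6 genes, with a median log2 fold change of 0.34 and levels of 7.24, 7.03 and 7.19 on KO arrays, against 6.84, 6.68 and 6.44 on WT arrays. Lum, a matrix proteoglycan, read 5.43, 4.72 and 6.09 in KO cells, against 4.23, 4.17 and 3.98 in WT cells. Its log2 fold change was 1.28 (standard error 0.294; limma unadjusted p = 0.00181, adjusted p = 1.0). Dcn, a related proteoglycan, and Pdgfra, a growth factor receptor, had log2 fold changes of 0.54 and 0.85. Among KO arrays, Lum was highest on replicate 3 and lowest on replicate 2, as H2-Ab1 was. Dcn was lowest on KO replicate 1 and Pdgfra on KO replicate 3, so the order of the KO arrays differed between the 3 genes. The collagen genes of the list, Col1a1, Col1a2 and Col3a1, differed by less, with log2 fold changes of 0.13, 0.06 and 0.14. Each of them was lower on KO replicate 1 than on WT replicate 1, unlike H2-Ab1. Endothelial markers had 4 of 6 higher, at levels between 5.34 and 5.48 on KO arrays and between 5.13 and 5.49 on WT arrays. The part of stromal cells in the value of H2-Ab1 was not tested.

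The genes whose array profile was most like the mean profile of H2-Aa, H2-Ab1 and H2-Eb1 were found by the root-mean-square difference of log2 values centred on each gene's mean over the 6 arrays. That profile stood at 0.38, -0.10 and 0.27 on KO arrays, against -0.01, -0.14 and -0.40 on WT arrays. The nearest were Mndal, a gene of the interferon-inducible HIN-200 family, at a root-mean-square difference of 0.041, and Lmnb1, encoding lamin B1, at 0.051. Taf9b, of the TFIID complex, followed at 0.060, the serotonin receptor gene Htr7 at 0.061, the ferritin-like gene Fthl17f at 0.072 and Ankrd28 at 0.080. Mndal was dim, at 3.67, 3.20 and 3.56 in KO cells, against 3.24, 3.12 and 2.98 in WT cells. With 6 arrays many of 22180 genes can come close to any profile, and none of these genes passed the threshold.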

How the data were processed

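Expression arrays of sorted mammary basal cells were analysed, 3 of KO and 3 of WT mice. The authors deposited log2 values, 1 per probe set and array, made with RMA (background correction, normalization between arrays, probe summary), and Transcriptome Analysis Console 4.0 is named, both per the submitters' processing notes. The table held 41345 rows. GEO's platform annotation gave 1 gene symbol for 23521, several for 1814 and none here for 16010. For 1082 genes with more than 1 row, the row of highest mean stood for the gene, and each measured member had 1 row. Of 138 entries in the other gene lists 130 were measured. RefSeq tables of GRCm38.p6 gave names, neighbours and promoters.

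KO was set against WT in limma 3.58.1 (R 4.3.3; lmFit, then eBayes with trend), with two-sided p-values adjusted by Benjamini-Hochberg over 22180 genes and a threshold of 0.05. The fit was tested on simulated data. Members and lists were chosen with earlier results of these data known. Named were all members, of each list at most the 4 genes of smallest p, and the 6 genes of most similar profile, with predicted genes skipped. In some lists fewer are named. H2-Ea was added as the partner chain of H2-Eb1, H2-DMb2 as a further DM β chain gene and Lgmn as a gene whose groups did not overlap. Further genes were added where they differed from the named genes of their list (C1qb, Adgre1, Fcgr1, the collagen genes and Epcam). Psmb8, Psmb9 and Psmb10 were added because they stood high on the same arrays as H2-DMa. Deviations from group means correlated between same-numbered arrays at 0.121, 0.25 and 0.127 across genes. KO replicate 3 and WT replicate 1, of different numbers, correlated at 0.130. The other differently numbered arrays lay between -0.23 and -0.03. The correlations thus do not set every same-numbered pair apart. The numbers were treated as pairs in an alternative with a replicate block. No label says what a number shares. Scan dates were not used here. Figures were drawn with matplotlib 3.10.9.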

Additional observations from a re-analysis of the deposited data

How the results depend on the processing

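No gene passed an adjusted p under 0.05 in either direction under any alternative run (prior, array weights, quantile normalization, median centring, dim-gene filter, mean of rows, replicate block, adjusted p under 0.1, each array left out). At an unadjusted p under 0.05, limma called 357 higher and 379 lower. With replicate as a block H2-Ab1 was 0.64 (limma adjusted p = 0.942), and the block changed no call. Of 96 log2 fold changes and medians under alternatives keeping all arrays, 91 had the main direction. Ciita turned to -0.011 with quantile normalization and -0.0022 with median centring, and the co-stimulation median to -0.023 with dim genes left out, which leaves 4 of 6 genes. The accessory and processing median turned to -0.033 with array weights and the class I median to -0.00030 with the mean of all rows. With array weights H2-Aa was 0.46. Leaving out 1 array gave -0.077 to 0.34 for H2-Aa, 0.49 to 0.87 for H2-Ab1, 0.074 to 0.43 for H2-Eb1, -0.82 to -0.41 for H2-DMa, 0.0065 to 0.27 for H2-DMb1 and -0.13 to 0.16 for Ciita. It gave medians of 0.075 to 0.26 for the members, -0.027 to 0.11 for accessory and processing genes, 0.0067 to 0.093 for class II transcription, 0.011 to 0.16 for co-stimulation, -0.066 to 0.15 for interferon-gamma signalling and -0.15 to 0.14 for class I presentation. The within-array differences, added after seeing the data, lay between -0.92 and -0.49 for the DM chains and between -0.62 and -0.33 for the I-A chains when 1 array was left out. The causes were not tested. With 3 arrays a group, the standard error of a genotype difference had a median of 0.173 over all genes.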
